A study of Homo sapiens with 3 samples.

Results

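The cytoplasmic ribosomal protein genes encode the proteins of the ribosome's large and small subunits. They were taken from a RefSeq gene table as protein-coding genes named RPL or RPS with a number and an optional final A or X, together with RPLP0, RPLP1, RPLP2, RPSA and FAU, leaving out RPS27A. This gave 77 of 19866 protein-coding genes on the chromosomes, 46 for the large and 31 for the small subunit. The naming rule uses no measured value, but the set was chosen with earlier results of these data known. The question was which of their ends carried a peak of VCP or of the Flag tag, and whether both antibodies marked the same genes.

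The cells were HCT116, a human colorectal cancer line, made to overexpress VCP with a Flag tag. Formaldehyde-fixed chromatin was cut with micrococcal nuclease and precipitated with an antibody to VCP or an antibody to Flag, and an input library without antibody was prepared from the same kind of cells. The series' design text describes all of it as work on cells that overexpress tagged VCP, and no sample is labelled as an untagged control. Neither the promoter nor the number of clones is given. Each was 1 library, so no value below has a replicate error, and none of the comparisons between antibodies or subunits could be tested. The files used here are the authors' peak lists, with 1816 VCP peaks and 5719 Flag peaks. Read depth at the summit was low, with a median of 10 reads per VCP peak and 11 per Flag peak.

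Ribosomal protein genes are among the most highly transcribed genes of a growing cell, and most of their products are needed in equal numbers. Their promoters are compact, their transcripts usually begin in a short pyrimidine tract, and many of their introns carry small nucleolar RNAs that guide the modification of ribosomal RNA. VCP is a ring-shaped ATPase that pulls ubiquitin-marked proteins out of complexes, membranes and chromatin, and it takes part in clearing stalled ribosomal products.

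The start regions of 7 members are shown because the results turn on them. RPL7A and RPL35 had peaks in both lists, and RPL17 and RPLP0 had a VCP peak only. RPL11 had the Flag peak of highest -log10 q among the members, and RPL29 and RPS26 had the Flag summits nearest to a start entry. Each sequence runs from 250 bases before the annotated start through the first 30 transcribed bases (RefSeq, GRCh38.p14), 5′ to 3′ on the gene's strand. Capitals mark matches, on either strand, to short letters that are listed with their shares further down.
RPL7A (chr9:133347968-133348247, plus strand): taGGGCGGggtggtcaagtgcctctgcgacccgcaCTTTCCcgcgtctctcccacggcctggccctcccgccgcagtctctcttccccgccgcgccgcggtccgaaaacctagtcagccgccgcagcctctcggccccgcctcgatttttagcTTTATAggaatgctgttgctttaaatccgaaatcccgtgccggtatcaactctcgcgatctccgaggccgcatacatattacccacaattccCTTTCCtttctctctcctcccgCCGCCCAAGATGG
RPL35 (chr9:124861928-124862207, minus strand): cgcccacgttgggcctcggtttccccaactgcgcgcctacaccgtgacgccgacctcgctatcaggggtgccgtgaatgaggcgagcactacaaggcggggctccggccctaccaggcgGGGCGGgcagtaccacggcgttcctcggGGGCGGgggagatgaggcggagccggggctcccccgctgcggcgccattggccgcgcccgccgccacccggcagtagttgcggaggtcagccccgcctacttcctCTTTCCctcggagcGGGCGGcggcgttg
RPL17 (chr18:49492436-49492715, minus strand): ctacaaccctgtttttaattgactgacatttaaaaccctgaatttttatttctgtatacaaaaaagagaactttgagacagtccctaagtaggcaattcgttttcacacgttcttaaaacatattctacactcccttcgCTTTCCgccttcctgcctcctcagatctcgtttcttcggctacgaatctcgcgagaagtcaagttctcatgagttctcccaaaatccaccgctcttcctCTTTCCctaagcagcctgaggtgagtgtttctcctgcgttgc
RPLP0 (chr12:120201082-120201361, minus strand): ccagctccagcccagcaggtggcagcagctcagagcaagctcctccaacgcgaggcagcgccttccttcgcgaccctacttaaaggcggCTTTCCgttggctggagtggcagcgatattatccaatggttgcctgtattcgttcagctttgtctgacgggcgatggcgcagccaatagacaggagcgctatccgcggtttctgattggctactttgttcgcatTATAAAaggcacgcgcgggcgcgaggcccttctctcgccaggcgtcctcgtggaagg
RPL11 (chr1:23691556-23691835, plus strand): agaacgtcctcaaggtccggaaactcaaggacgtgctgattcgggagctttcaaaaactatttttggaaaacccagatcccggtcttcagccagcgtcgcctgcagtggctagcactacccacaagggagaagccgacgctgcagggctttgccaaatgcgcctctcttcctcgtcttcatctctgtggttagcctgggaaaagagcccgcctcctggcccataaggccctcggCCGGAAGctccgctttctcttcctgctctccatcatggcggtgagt
RPL29 (chr3:51995866-51996145, minus strand): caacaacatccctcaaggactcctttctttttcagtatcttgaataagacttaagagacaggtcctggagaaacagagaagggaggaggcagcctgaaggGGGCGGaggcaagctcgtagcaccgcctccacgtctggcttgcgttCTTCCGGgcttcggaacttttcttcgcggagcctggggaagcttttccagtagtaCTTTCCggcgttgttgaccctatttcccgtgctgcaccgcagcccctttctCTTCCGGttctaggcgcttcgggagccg
RPS26 (chr12:56041668-56041947, plus strand): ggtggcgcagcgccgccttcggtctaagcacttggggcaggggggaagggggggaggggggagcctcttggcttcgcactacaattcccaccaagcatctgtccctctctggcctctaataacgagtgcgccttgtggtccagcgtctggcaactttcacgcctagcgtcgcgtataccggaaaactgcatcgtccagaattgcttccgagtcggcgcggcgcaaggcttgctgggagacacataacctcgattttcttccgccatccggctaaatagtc

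Of the 77 members, 62 had at least 1 such start entry. RPL5, RPL37, RPS20, RPL7, RPL30, RPL8, RPS2, RPS15A, RPL23A and RPL23 were among the 15 that had none. In the sequences above, the RPL7A region holds a TATA match on the reverse strand at -97 (counted from 0 at the start), a pyrimidine tract match at -5, and an SP/KLF match at 17 that runs straight into a YY1 match at 23. RPLP0 has a TATA match at -27. RPL17 has pyrimidine tract matches at -111 and -12, and RPL29 has ETS matches at -104 and 2. RPS26 holds none of the letters searched in this window.

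A gene was counted as marked when a summit lay within 1 kb of either of its ends. The VCP list marked 6 of the 77 members (7.79%, exact binomial 95% interval 2.91 to 16.2), against 2.34% of all protein-coding genes. The Flag list marked 17 (22.1%, 13.4 to 33), against 11.7% of all protein-coding genes. Both lists marked 3 (3.9%, 0.811 to 11), against 0.987%. Together 20 members were marked in either list and 57 in neither. The matching shares over all protein-coding genes were not counted, so these 2 numbers do not describe members against other genes. In all 3 counts the members' share was above the share over all genes, and the latter lay below the interval of the former for VCP and Flag and inside it for both lists. All genes include those silent in these cells, so the comparison does not separate ribosomal protein genes from active genes in general. These intervals treat genes as independent draws and cover counting error only. With 1 library per antibody, they hold no spread between experiments. The Poisson intervals of reads given below also take reads as independent molecules, which PCR copies are not.

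The large subunit had 11 of 46 genes with a Flag summit (23.9%, exact 95% interval 12.6 to 38.8) and the small subunit 6 of 31 (19.4%, 7.45 to 37.5). With the VCP antibody the counts were 5 of 46 (10.9%, 3.62 to 23.6) and 1 of 31 (3.23%, 0.0816 to 16.7). The intervals of the 2 subunits overlapped widely in both lists. The shares of all protein-coding genes, 11.7% with Flag and 2.34% with VCP, lay below the large subunit intervals and inside those of the small subunit. With so few genes this does not set the subunits apart. The 2 genes of the large subunit and the 1 of the small subunit that both lists marked made 4.35% and 3.23% of their groups. The 0.987% of all protein-coding genes lay inside both intervals (0.531 to 14.8 and 0.0816 to 16.7).

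**Figure D1:**
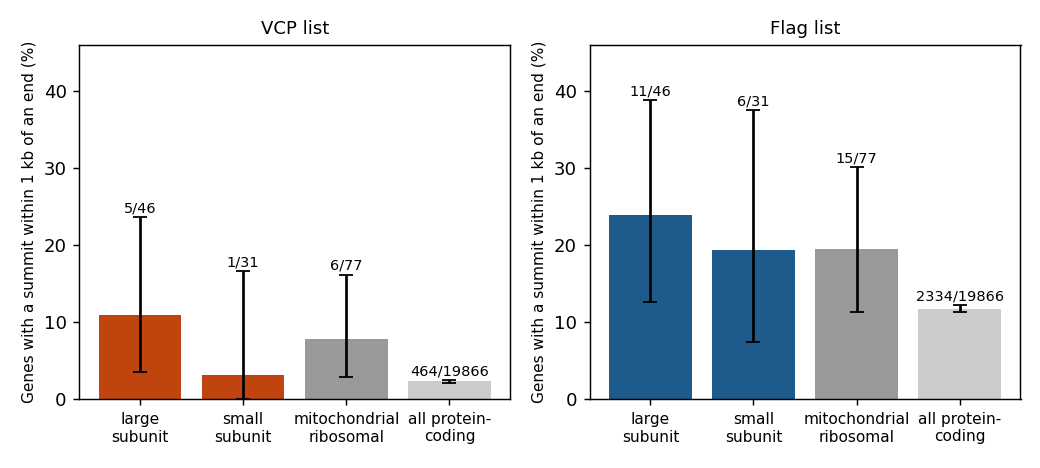
Share of genes with a summit within 1 kb of either end (vertical axis, percent), in the VCP list (left) and the Flag list (right), for large and small subunit genes, mitochondrial ribosomal protein genes and all protein-coding genes. Bars are shares, error bars exact binomial 95% intervals, and the labels give marked genes over all genes of the group. The large subunit stands at 10.9% and 23.9% and the small subunit at 3.23% and 19.4%, with overlapping intervals.

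Peaks of both antibodies met at 3 members, among them RPL7A and RPL35. RPL7A encodes a large subunit protein, and 4 small nucleolar RNA genes lie within it. Its VCP peak (chr9:133348242-133348424, hg38) had a fold enrichment of 4.03, which is the authors' ratio of summit reads to local background with 1 read added to each, on 11 reads (Poisson 95% interval 5.49 to 19.7) over a background of 1.98. Its Flag peak (chr9:133348074-133348424) had a fold enrichment of 4.84 on 14 reads (7.65 to 23.5). The VCP peak lay wholly inside the Flag peak, sharing all of its 183 bp, and the summits were 12 bp apart, at 88 and 100 bp after the start shown above. This was the closest match between the antibodies among the members. MED22, a Mediator subunit gene, has an end 175 bp from the VCP summit and 187 bp from the Flag summit.

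RPL35 encodes a protein at the rim of the tunnel through which new peptides leave the ribosome. Its VCP peak (chr9:124862003-124862343) had a fold enrichment of 3.91 on 10 reads (4.8 to 18.4), and its Flag peak (chr9:124861825-124862327) one of 3.42 on 9 reads (4.12 to 17.1). Both summits lay upstream of the RPL35 start, by 291 and 243 bp. They were nearer to ARPC5L, which encodes a subunit of an actin-branching complex, at 118 and 70 bp from its end. These peaks therefore cannot be assigned to RPL35 alone.

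Under stricter rules for a shared peak, summits within 150 bp or an overlap of 50% of the VCP peak, RPL7A and RPL35 were the 2 members that remained. They were 2 of 6 VCP peaks at member ends (33.3%) under either rule. Over VCP peaks at all gene ends the shares were 25.1% for summits within 150 bp and 27.3% for the overlap of 50%.

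At the level of peaks, 3 of the 6 VCP peaks at member ends overlapped a Flag peak (50%, exact 95% interval 11.8 to 88.2), against 128 of 395 VCP peaks at all gene ends (32.4%). The 3 genes were 50% of the members marked by VCP and 17.6% of those marked by Flag (3.8 to 43.4). Over all protein-coding genes these shares were 42.2% and 8.4%, and both lie within the members' wide intervals.

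The other 3 members with a VCP peak had no Flag summit within 1 kb. RPL17, whose protein lines the exit tunnel, had the members' strongest VCP peak (chr18:49492271-49492469), with a fold enrichment of 4.20, a -log10 q of 1.13 and 12 reads (6.2 to 21). Its summit lay 67 bp after the start, which RPL17 shares with the read-through gene RPL17-C18orf32. The nearest Flag summit lay 1408 bp beyond the other end of RPL17, at an end of C18orf32 (fold enrichment 4.33, 14 reads). RPLP0, which anchors the stalk that recruits elongation factors, had a VCP peak (chr12:120200798-120201108) with a fold enrichment of 3.69 on 13 reads (6.92 to 22.2), with its summit 121 bp after the start. Its nearest Flag summit was 90916 bp away. No Flag summit at the start of RPL17 or RPLP0 therefore accompanied the VCP peak.

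RPL30, a large subunit gene with 1 small nucleolar RNA gene inside it, had a VCP summit 992 bp inside 1 of its ends, close to the limit of the window. The fold enrichment was 3.24 on 9 reads (4.12 to 17.1), and the nearest Flag summit was 18824 bp away. RPL30 lies on chromosome 8 and RPL23, a gene with a Flag peak, on chromosome 17, and parts of both are known to be gained in HCT116. Their local backgrounds were 2.09 and 2.22 reads, within the 1.81 to 2.79 of the VCP peaks described here and the 1.85 to 4.08 of the Flag peaks, and the part of copy number was not tested.

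The strongest Flag peak at a member was that of RPL11, whose protein forms a particle with RPL5 and the 5S ribosomal RNA and binds the p53 regulator MDM2. It spanned chr1:23691810-23692011, with a fold enrichment of 5.62, a -log10 q of 4.66 and 15 reads (8.4 to 24.7) over a background of 1.85. The summit lay 83 bp after the start shown above. No VCP summit was nearer than 46551 bp. RPL5, its partner in that particle, had no summit of either list at its ends, with the nearest Flag summit 46389 bp away. The Flag peak of RPL11 was 117th by -log10 q among the 2027 Flag peaks at gene ends.

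RPL18 was the 1 member with a Flag peak at each end. The peak at its start (chr19:48619396-48619819) had a fold enrichment of 4.30 and 16 reads (9.15 to 26), with the summit 329 bp upstream and 1 bp from the end of SPHK2, a sphingosine kinase gene. The peak at its transcript end (chr19:48614919-48615254) had a fold enrichment of 3.83 and 11 reads (5.49 to 19.7), with the summit 141 bp outside RPL18 and 114 bp from an end of FAM83E. Both summits were thus nearer to the neighbour than to RPL18.

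RPL37A and RPL37 encode zinc-binding proteins of the large subunit. The Flag peak of RPL37A (chr2:216498515-216499028) had a fold enrichment of 4.50 on 12 reads (6.2 to 21), with its summit 202 bp upstream of the start. That of RPL37 (chr5:40835027-40835450) had 3.35 on 16 reads (9.15 to 26), with its summit 33 bp inside the gene. The read number was higher at RPL37 and the enrichment lower, since its local background was 4.08 reads against 1.89 at RPL37A. No VCP summit lay within 1 kb of either gene.

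RPL29, another large subunit gene, had its Flag summit 10 bp upstream of the start, the closest of all members, in a peak at chr3:51995716-51996034 with a fold enrichment of 3.67 on 16 reads (9.15 to 26). RPL23, whose protein lies at the interface of the subunits, had a peak at chr17:38853900-38854108 with a fold enrichment of 3.73 on 11 reads (5.49 to 19.7). The other 3 large subunit genes marked by Flag alone had weaker peaks. RPLP2, which encodes an acidic stalk protein, had a fold enrichment of 2.95 on 14 reads, with the summit 482 bp upstream of the start and 16 bp from an end of PIDD1. RPL41, which encodes a very short peptide, had 3.48 on 9 reads, with the summit 626 bp into a gene of 1335 bp. RPL36 had 3.18 on 10 reads, with the summit 464 bp upstream of the start. All 3 had a -log10 q below 1.

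Among small subunit genes, RPS26, whose protein sits where the messenger RNA leaves the subunit, had its Flag summit 48 bp after the start (chr12:56041844-56042070, fold enrichment 3.59, 17 reads, 9.9 to 27.2). RPSA, also known as the laminin receptor gene, had a peak at chr3:39406794-39407164 with a fold enrichment of 3.86 on 10 reads (4.8 to 18.4), 241 bp after its start. RPS27 had a peak at chr1:153990723-153990957 with a fold enrichment of 3.67 on 11 reads (5.49 to 19.7), 128 bp after its start and 182 bp from an end of RAB13. RPS2, whose protein lies at the messenger RNA entry channel, had a peak at chr16:1964736-1965256 with a fold enrichment of 3.61 on 10 reads (4.8 to 18.4). A further Flag summit lay 1028 bp from the other end of RPS2, at an end of NDUFB10, and was not counted. RPS29, a zinc-binding protein gene, had a peak at chr14:49598785-49599168 with a fold enrichment of 3.59 on 12 reads (6.2 to 21), 394 bp upstream of its start and 164 bp from an end of LRR1. RPS29 also held the 1 summit found deeper than 1 kb inside any member, a Flag summit 12121 bp from the nearer end (fold enrichment 3.31, 11 reads). The VCP list had none there. Although 71 members are long enough to hold one, members are short, with a median length of 5011 bp against 24469 bp for all protein-coding genes. The share of all genes with such a summit was not counted, so the lack of one at members has nothing to be set against.

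**Figure D2:**
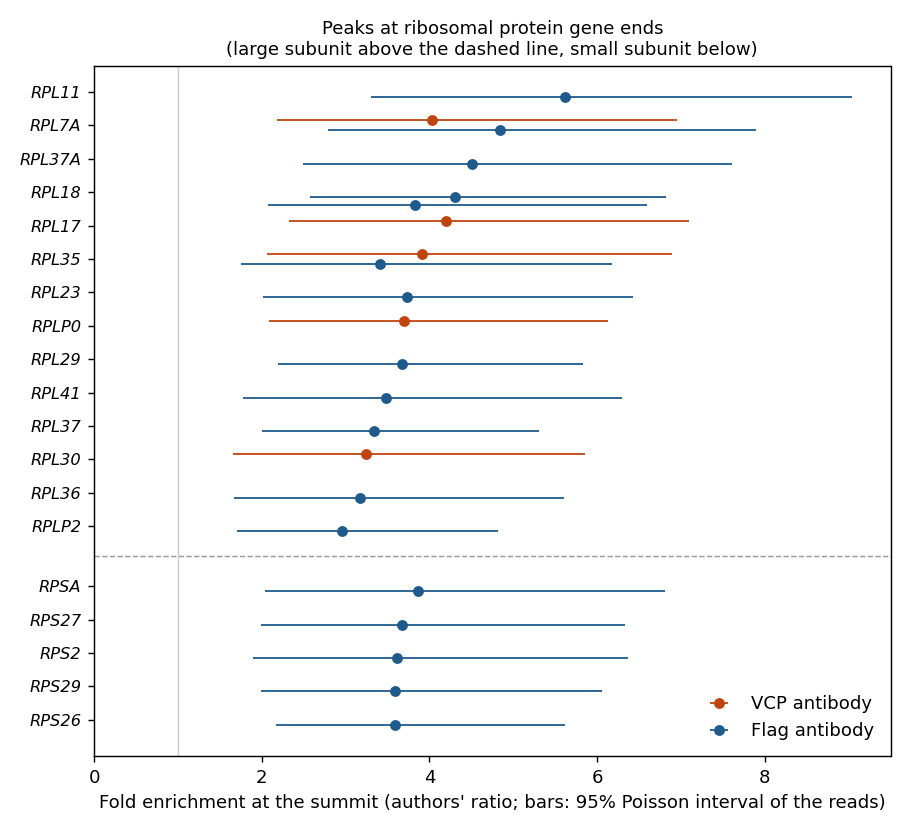
Fold enrichment at the summit (horizontal axis, the authors' ratio) of the peaks described here, within 1 kb of an end of a ribosomal protein gene, by gene and antibody. Points are single peaks and bars the Poisson 95% interval of the summit reads over the same background, with 1 read added to each. The VCP points lie between 3.24 and 4.2 and the Flag points between 2.95 and 5.62, and all intervals overlap one another.

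By fold enrichment and reads, the members' peaks had medians close to those of all gene-end peaks. The 18 Flag peaks had a median fold enrichment of 3.67 and a median of 12 reads, and the 2027 Flag peaks at all gene ends also had medians of 3.67 and 12. The 6 VCP peaks had a median fold enrichment of 3.8 on 10.5 reads, against 3.61 and 10 for 395 peaks. By -log10 q the members' medians were higher, at 0.754 against 0.389 in the VCP list and 1.37 against 1.29 in the Flag list. Their median ranks by -log10 q were 97 of 395 and 900 of 2027. Large and small subunit peaks of the Flag list had median fold enrichments of 3.7 and 3.64. The counting intervals of all these peaks overlapped one another.

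A q of 0.05 was passed by 10 of the 18 Flag peaks and 0 of the 6 VCP peaks at members. By the members' ranks, at least 907 and fewer than 915 of the 2027 Flag peaks at all gene ends passed it. Fewer than 51 of the 395 VCP peaks at all gene ends did. In the Flag list 9 members kept a peak (11.7%, exact 95% interval 5.49 to 21), against 5.53% of all protein-coding genes. They were 7 of 46 large subunit genes (15.2%), namely RPL11, RPL7A, RPL18, RPL37A, RPL29, RPL37 and RPL23, and 2 of 31 small subunit genes (6.45%), among them RPS26. Just inside this limit was RPL23, with a -log10 q of 1.304, and just outside were RPS27, RPSA and RPS29, which tied at 1.293. In the VCP list 0 of 77 members kept a peak (exact 95% interval 0 to 4.68%), against 0.272% of all genes, which lies within that interval. The highest -log10 q of a VCP peak at a member was the 1.13 of RPL17.

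**Figure D3:**
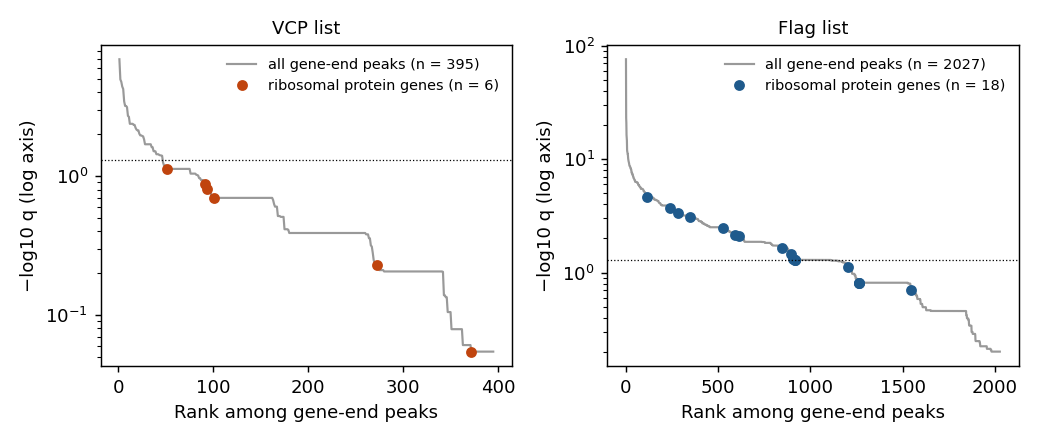
The -log10 q of each peak at a gene end (vertical log axis) against its rank among them, for the VCP list (left) and the Flag list (right). The grey line is all gene-end peaks (395 and 2027), the coloured points are the 6 and 18 peaks at ribosomal protein genes, and the dotted line marks a q of 0.05. All VCP points lie below that line, and the Flag points start at rank 117.

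Most summits lay near the start. Of the 14 Flag peaks at members with a start entry, 13 were at the start and 1, at RPL18, at the transcript end. Of those 13 summits, 7 lay upstream (53.8%), with quartiles of -329 and 100 bp and a median of -10 bp. For summits within 1 kb of a start of another protein-coding gene, counted per gene, the median was -97 bp with quartiles of -230 and 79.5 bp, and 62.7% of 1843 lay upstream. All 4 VCP peaks with a start entry were at the start. RPL17, RPL7A and RPLP0 had their VCP summits between 67 and 121 bp after it, while RPL35 had its summit 291 bp before it. Among other genes 55.3% of 331 VCP summits lay upstream. When only annotated starts were counted, 12.6% of all genes with a start entry had a Flag summit and 2.37% a VCP summit. The members' shares were then 21% and 6.45%. For either end, the shares were 11.7% and 2.34% of all 19866 protein-coding genes. The shares for starts rest on the 15843 genes with a start entry. As the gene sets differ, the 2 pairs of shares do not show where summits lie. The split between start and transcript end was not counted over all genes.

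**Figure D4:**
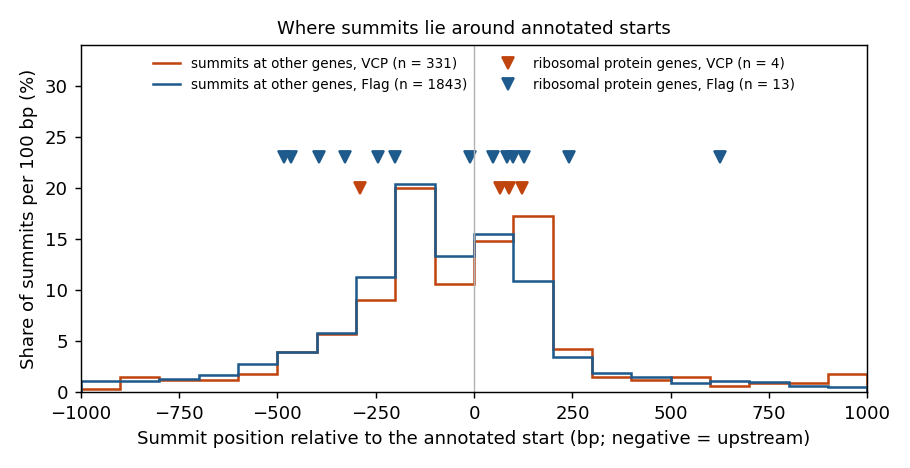
Position of summits relative to the annotated start (horizontal axis, bp, negative upstream). Lines give the percent of summits per 100 bp at other protein-coding genes (331 VCP and 1843 Flag), and triangles mark the 4 VCP and 13 Flag summits at ribosomal protein genes, at a height with no meaning. The VCP triangles after the start lie between 67 and 121 bp, and the Flag triangles range from -482 to 626 bp.

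Of the 7 Flag summits upstream of a member's start, those of RPL18, RPL35, RPLP2 and RPS29 were nearer to an end of another gene, and those of RPL29, RPL36 and RPL37A were not within 1 kb of one. Of the 18 Flag peaks at members, 7 also lay within 1 kb of an end of another protein-coding gene, as did 3 of the 6 VCP peaks. This was not counted over all gene-end peaks. Counted per gene, 9 of the 17 members with a Flag summit had another gene's end within 1 kb of their own (52.9%, 27.8 to 77). Of all genes with a Flag summit, 44.9% did, which lies within that interval. Of the 29 members with another gene's end within 1 kb of their own, 9 had a Flag summit (31%, exact 95% interval 15.3 to 50.8), and of the 48 others 8 did (16.7%, 7.48 to 30.2). Over all protein-coding genes these shares were 18.5% and 9.06%, which lie within the members' intervals. The intervals of the 2 classes of members overlapped. When each peak was given only to the gene with the nearest end, 13 members kept a Flag summit (16.9%) against 9.87% of all genes, and RPL18, RPL35, RPLP2 and RPS29 were no longer counted.

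Small nucleolar RNA genes lay inside 29 of the 77 members, 60 of them in all. Of the host genes 6 had a Flag summit (20.7%, 7.99 to 39.7), and of the 48 others 11 did (22.9%, 12 to 37.3). The 11.7% of all protein-coding genes lay inside the first interval and just below the second. In the VCP list the counts were 3 of 29 (10.3%, 2.19 to 27.4) and 3 of 48 (6.25%, 1.31 to 17.2), and both intervals include the 2.34% of all genes. RPL7A, RPL17 and RPL30 were the host genes with a VCP peak. Members with a Flag summit were a median of 3708 bp long and those without 5081 bp, against 24469 bp for all protein-coding genes.

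Grouped by place in the ribosome, Flag marked 1 of 2 genes of the 5S particle (RPL11), 1 of 4 of the stalk and its base (RPLP2) and 1 of 9 of the exit tunnel and its rim (RPL35). VCP marked 0, 1 (RPLP0) and 2 (RPL17 and RPL35) of these, in the same order. Of 19 ribosomal protein genes known as sites of Diamond-Blackfan anaemia variants, a failure of red cell production, 7 had a Flag summit (36.8%, 16.3 to 61.6) and 2 a VCP summit. The 7 included RPL11, RPL18, RPL35, RPS26, RPS27 and RPS29. The exact interval of each of these groups included the share over all members in both lists. Against all protein-coding genes, the 11.7% with a Flag summit lay below the interval of the anaemia list and inside those of the other groups. The 2.34% with a VCP summit lay below the interval of the exit tunnel group (2 of 9, 2.81 to 60) and inside those of the others.

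The letters searched on both strands of the 300-base start windows were the ETS letters CCGGAAG, the YY1 letters AAGATGG, the NRF1 letters GCATGCGC, the SP/KLF letters GGGCGG, the TATA letters TATAAA, the pyrimidine tract letters CTTTCC and the E-box letters CACGTG. A match is a description and not a binding site. A gene counted when any of its start windows held the letters. ETS letters were in 21 of 62 members (33.9%, 22.3 to 47) and in 16.5% of 15843 protein-coding genes. The pyrimidine tract letters were in 30 members (48.4%, 35.5 to 61.4) and in 32% of all. YY1 letters were in 9 members (14.5%) against 7.9%, SP/KLF letters in 37 (59.7%) against 64.3%, TATA letters in 5 (8.06%) against 12.4%, E-box letters in 4 (6.45%) against 10.9% and NRF1 letters in 3 (4.84%) against 4.89%.

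Members with and without a Flag summit held ETS letters about as often, in 4 of 13 (30.8%, 9.09 to 61.4) and 17 of 49 (34.7%, 21.7 to 49.6). The pyrimidine tract letters were in 5 of 13 and 25 of 49. All 4 members with a VCP summit and a start entry (RPL7A, RPL35, RPL17 and RPLP0) held the pyrimidine tract letters, and RPL7A and RPLP0 also held the TATA letters. With 4 genes the exact interval for the pyrimidine tract share runs from 39.8 to 100%, which includes the share of all members. A match counted anywhere in the window, and the only pyrimidine tract match of RPLP0 lay at -161, away from the start.

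**Figure D5:**
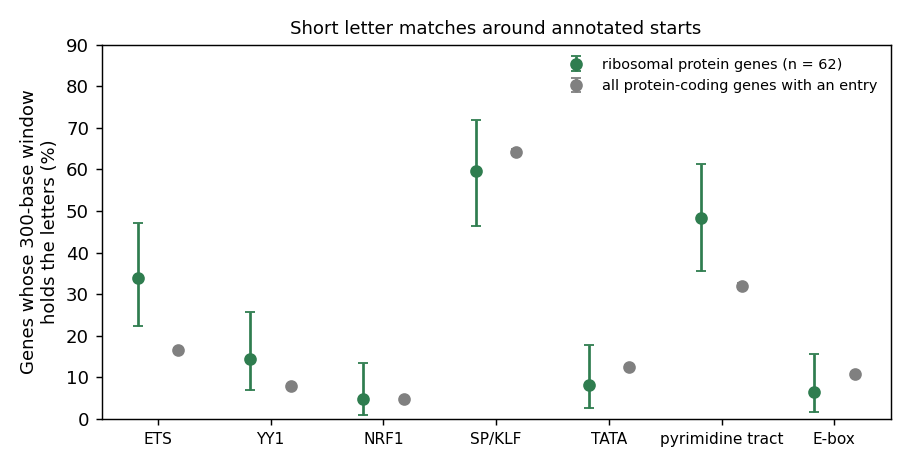
Percent of genes whose 300-base start window holds each set of short letters on either strand (vertical axis), for 62 ribosomal protein genes (green) and 15843 protein-coding genes (grey). Points are shares and bars exact binomial 95% intervals. The ETS and pyrimidine tract points of the ribosomal protein genes, at 33.9% and 48.4%, lie above those of all genes, at 16.5% and 32%.

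Ribosomal protein transcripts have left many processed copies in the genome, and reads of exons can map to several of them. The table holds 1970 pseudogenes of the members by name. Of these, 8 had a Flag summit within 1 kb of an end (0.406%, exact 95% interval 0.175 to 0.799) and 3 a VCP summit (0.152%), against 0.582% and 0.186% of all 16655 pseudogenes. How reads with several matches were treated is not given in the sources used here. Summits inside members, 7 of 18 in the Flag list and 5 of 6 in the VCP list, could share reads with such copies where they cover an exon. The share of inside summits was not counted over all gene ends. Whether such copies added reads to these summits was not tested.

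Other genes of ribosome production and translation were also marked, with Flag shares from 28.6 to 50% in 4 lists, against 22.1% of the members and 11.7% of all protein-coding genes. The share of all genes lay below the interval of each list, the intervals overlapped that of the members, and no difference was tested. Of the paralogues and ubiquitin fusions left out by the naming rule, Flag marked 4 of 10 (40%, 12.2 to 73.8), among them RPS27L (fold enrichment 4.75), the ubiquitin fusion gene RPS27A (4.28) and RPL7L1 (3.86), and VCP marked RPL7L1 (3.78). Among elongation and ribosome-associated factors Flag marked 6 of 12 (50%, 21.1 to 78.9), with the poly(A)-binding protein gene PABPC1 (4.66), EEF1A1 (4.08) and EEF1D (3.41), and VCP marked PABPC1 (3.14). Among ribosome assembly factors Flag marked 10 of 35 (28.6%, 14.6 to 46.3), with NOL11 (4.51), NOP58 (4.92) and NIP7 (4.14), and VCP marked MRTO4 (4.85) and LTV1 (3.28). Genes of RNA polymerase I and its factors had 6 of 14 with Flag (42.9%, 17.7 to 71.1), with POLR1A (5.97), POLR1G (4.82) and TAF1C (4.67), and UBTF with VCP (3.28). The VCP intervals of these 4 lists all include the 2.34% of all genes. The Flag peaks of PABPC1, EEF1A1, NOL11, POLR1A and POLR1G had a higher -log10 q than any at a ribosomal protein gene.

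The mitochondrial ribosomal protein genes, which also number 77, had 15 with a Flag summit (19.5%, 11.3 to 30.1) and 6 with a VCP summit (7.79%, 2.91 to 16.2). The cytoplasmic genes had 17 and 6. The mitochondrial intervals include the 11.7% of all genes with Flag and lie above the 2.34% with VCP. Both lists marked 0 mitochondrial genes, with an exact interval of 0 to 4.68% that includes the 3.9% of the cytoplasmic genes. MRPL30 (fold enrichment 5.62) and MRPS31 (4.79) led the mitochondrial Flag peaks by -log10 q, and MRPS22 (4.01) and MRPL38 (3.39) had the leading VCP peaks.

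Members without a summit of a given list at their ends lay at varied distances from the summits of that list. A wider window of 3 kb added a Flag summit at RPL17, RPL19, RPL23A, RPL27A, RPS12 and RPS16 and brought the count to 23 of 77 (29.9%), against 14.5% of all genes. The summit nearest to RPS12 lay 1440 bp upstream of its start (fold enrichment 3.66, 10 reads), and that of RPL27A 1726 bp upstream (2.81, 7 reads). Those of RPL23A (4.03, 14 reads), RPS16 (3.06, 9 reads) and RPL19 (4.21, 11 reads) lay 1688, 2081 and 2562 bp from an end. The wider window added no VCP member. RPS4X on the X chromosome was the member farthest from a Flag summit, at 2911435 bp. Over all 77 members, marked or not, the median distance to the nearest Flag summit was 23.7 kb, and to the nearest VCP summit 379 kb.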

How the data were processed

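Peak lists of 1 VCP and 1 Flag library were used. The input library was not analysed here. Per the submitters' processing notes, the tools were bcl2fastq 2.17, Trimmomatic 0.33, Bowtie 1.1.2 and MACS2 2.1.0 on hg38, with options not given in the sources used here. Fold enrichment, as the authors deposited it, is a ratio of summit reads over local background. The deposited -log10 p and -log10 q come from the authors' peak caller, and the lowest -log10 p was 3 in both lists. The deposited score was not used. Positions are 1-based.

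Summit reads were recovered, with a pseudocount of 1 read, as the whole number whose Poisson tail matched the deposited -log10 p, within 0.001 for all 1816 and 5719 peaks. Genes came from RefSeq (GRCh38.p14): 58961 of 59792 rows lay on the assembled chromosomes, and 19866 of these were protein-coding. Each list was compared with all of these genes, and peaks overlapped from 1 bp. No test was run, since there is 1 library per antibody. Shares have exact (Clopper-Pearson) 95% intervals. Code (Python 3.11.15, scipy 1.17.1) was tested on simulated data.

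The members and lists were chosen with earlier results of these data known. Members with a summit are named, apart from a result that is not reported here, and up to 3 genes per other list by -log10 q. The counts for pseudogenes and for members with a close neighbour were added after the peaks had been seen. Alternatives were other windows, a q of 0.05, nearest gene only, start only, any base of a peak, equal list sizes and other overlap rules.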

Additional observations from a re-analysis of the deposited data

How the results depend on the processing

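Of 50 recomputed counts, 38 stayed within 1.5 times the reported one. These include every count under the 500 bp and 3 kb windows, the nearest gene rule and any base of a peak. The other 12 fell. With a q of at most 0.05 the members with a Flag summit were 9 (7 large subunit, 2 small subunit), and those with a VCP summit 0 (0 large subunit, 0 small subunit), so members in both lists were 0 and overlapping VCP peaks at member ends were 0. With the Flag list cut to the 1816 peaks of highest -log10 q, 8 members had a Flag summit (6 large subunit, 2 small subunit), against 5.33% of all genes. With the annotated start only, small subunit members with a VCP summit were 0 of 24, against 2.37% of all genes with a start entry. So few genes cannot set the small subunit apart from that share. Fewer peaks or genes entered each of these counts by construction. No paired analysis was possible because each antibody has 1 library. Peaks of 9 to 17 reads limit all statements on single genes, and a gene without a summit is not shown to lack VCP.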
